A study of Arabidopsis thaliana with 12 samples.

Results

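The response of whole Arabidopsis thaliana seedlings of the accession Col-0, the reference strain, to abscisic acid (ABA) is described here for genes and pathways outside the core of ABA signalling. Plants aged 4 days, raised under continuous light, spent 3 h either on control medium (mock) or on medium that held 5 µM ABA. Each group had 3 libraries of polyadenylated RNA that the labels call replicates, so the comparison took 6 of the 12 libraries of the series. The comparison started from every gene in the authors' deposited table (32833 genes) and every event in their splicing tables (192386 events). Of the events, 91 could not be recovered, and 161122 passed a minimum of junction reads. The gene lists were chosen with earlier results of these data known. Whole seedlings mix all tissues, so fewer cells of a type and less RNA per cell cannot be told apart.

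ABA accumulates when water is short and while seeds mature. Its receptors, when bound, inhibit a group of protein phosphatases and thereby release kinases that phosphorylate transcription factors. Many of those factors bind the ABA-responsive element (ABRE), a short promoter sequence built on the letters ACGTG. Outside this core, ABA is known as background to shape barriers such as suberin and wax, reserve metabolism, nutrient uptake in roots and the balance with other hormones.

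The gene table gave a fold change, a standard error and a p-value per gene, but no value per library. Values per library were therefore taken from the splicing tables: for each gene with an annotated event, the junction reads of its deepest event, scaled to 1000000 such reads per library (RPM). These reads summed to between 15061168 and 15551129 in the mock libraries and between 14252404 and 14900944 in the ABA libraries. Across 13727 genes, which are not independent replicates, their log2 change and the deposited one had r = 0.958. The labelled treatment was visible in all libraries. RD29A, a classic ABA-induced gene, had 21.9, 12 and 12.3 junction RPM under mock and 990, 1032 and 1150 under ABA. All 5 marker genes of the treatment were called higher, among them RD29B (named LTI65 below), HAI1 and the dehydrin gene RAB18. Of 5 shoot markers 1, LHCB2.1 (0.22 ± 0.0561 in the authors' deposited table), was called higher and 0 lower, and the summed level of the 3 with junction reads was 13471 to 14792 RPM under mock and 13600 to 15081 under ABA. Of 8 root markers 0 were called higher and 5 lower, led by the root tip factors PLT1 and PLT2 (-1.20 ± 0.175 and -0.63 ± 0.189 in the authors' deposited table; limma adjusted p = 0.069 for PLT1 in junction reads), and the summed level of the 4 with junction reads was 65.6 to 66.4 under mock and 48.4 to 50.6 under ABA. No marker in either list was at 0. Root-specific genes below are to be read beside that lower level, whose part in their changes was not tested.

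Among 23687 tested genes, the deposited log2 fold changes (ABA over mock) had a median of -0.001. At the authors' adjusted p under 0.05, 19.8% of tested genes were called higher and 18.4% lower, 38.3% in all, and 5.37% and 3.94% also passed a log2 size of 1. Against so large a background, a list with about 20% of its members called in a direction is ordinary. In the junction reads, tested with limma over 13798 genes, 14.1% were called higher and 16% lower, while the groups of 3 libraries did not overlap for 18.6% of genes with ABA higher and 23.9% with ABA lower. Over 38 gene lists, 598 of 609 member genes were tested, and 193 were called higher and 163 lower.

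Among genes whose normalized counts averaged 500 or more, the largest increases were in the ABA phosphatases HAI3 (7.42), HAI2 (6.43) and HAI1 (6.34), the desiccation proteins LEA7 (7.08), LEA4-5 (6.90) and LTI65 (6.73), and GolS2 (7.05), which makes a protective sugar, all log2 fold changes in the authors' deposited table. The others were the lipid transfer protein LTP4, the beta-glucosidase BGLU24 and the caleosin RD20, a lipid droplet protein. On that scale LTP4 changed by 6.61 ± 0.268 (standard error), BGLU24 by 6.53 ± 0.202 and RD20 by 6.40 ± 0.271 in the authors' deposited table. BGLU24 had 0.845, 0.531 and 0.579 junction RPM under mock and 39.6, 48.7 and 57.6 under ABA. The largest decreases included IMS2, IRT1, CYP82C4 and THAS1, described below, IGMT3 (-4.01 in the authors' deposited table), a methyltransferase gene, the ABA receptor PYL4 (-3.45 ± 0.0867 in the authors' deposited table), the receptor-like kinase CRK30, the wall-degrading polygalacturonase PGAZAT and the cysteine proteinase CP1. PGAZAT had 61.5, 59.4 and 85.3 junction RPM under mock and 2.74, 3.96 and 4.56 under ABA, with a log2 fold change of -4.10 ± 0.15 in the authors' deposited table. The groups were far apart in BGLU24 and PGAZAT, with no overlap. UGT72E1, a glucosyltransferase that acts on lignin precursors, stood at -3.12 ± 0.12 in the authors' deposited table.

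**Figure D1:**
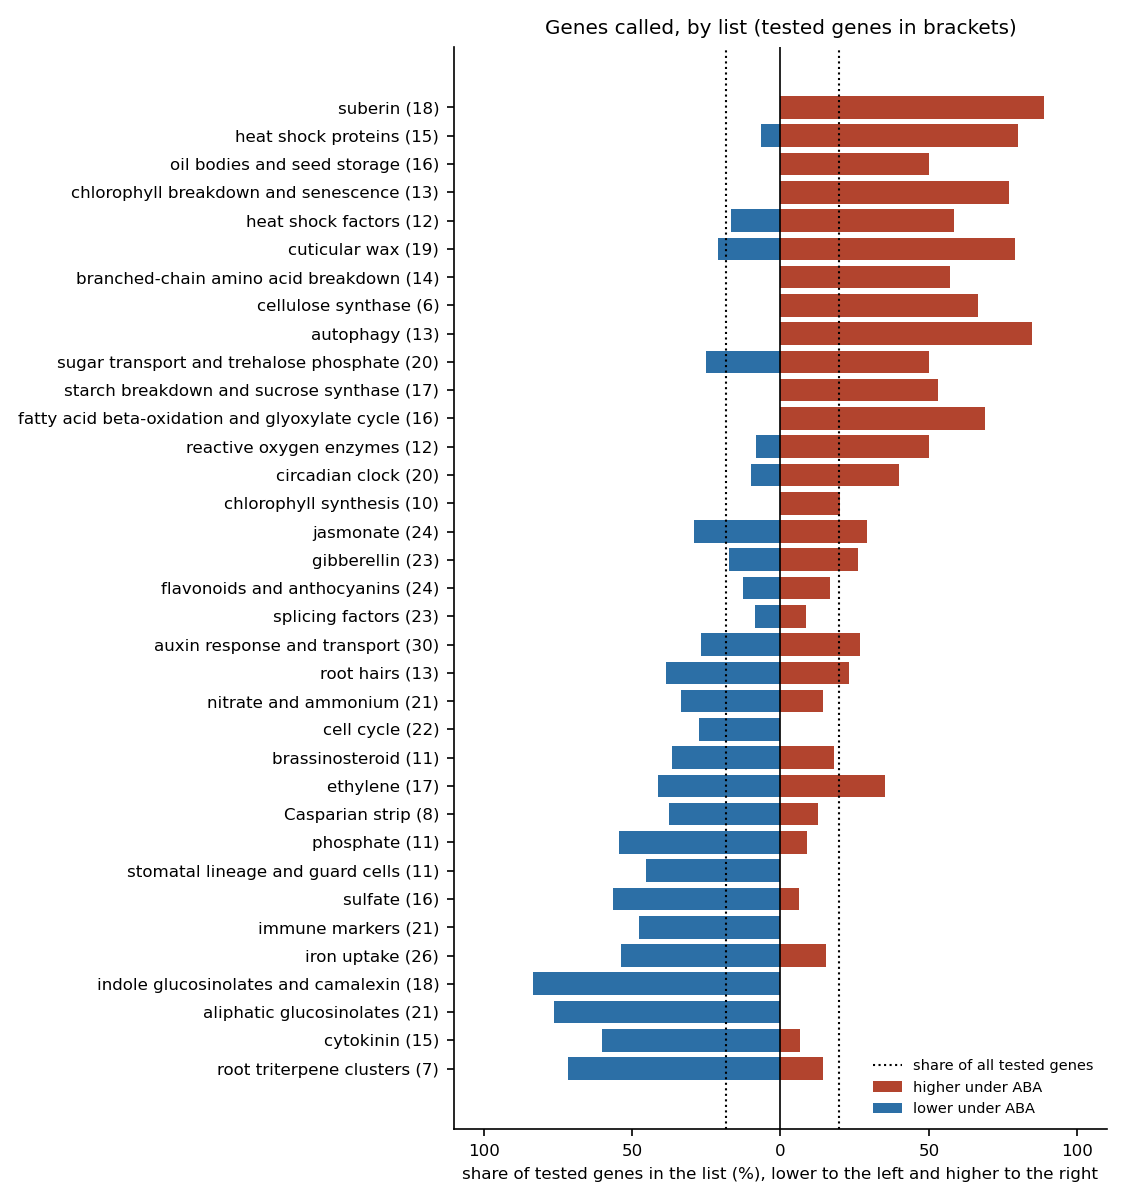
Share of tested genes called higher (right, red) and lower (left, blue) under ABA in 35 lists, in percent, ordered by the list's median log2 fold change; dotted lines mark the shares of all tested genes, 19.8% and 18.4%. Suberin, heat shock proteins and seed oil bodies have the highest medians, and root triterpenes, cytokinin, glucosinolates and iron uptake the lowest.

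Promoters of the changed genes differed in their letters. The window ran from 250 bases before to 50 after the annotated gene start (RefSeq sequences of the TAIR10 build), and both strands were searched. The ABRE was taken as ACGTGGC or ACGTGTC, the G-box as CACGTG, the W-box of WRKY factors as TTGACC, the evening element of clock genes as AAAATATCT, the dehydration-responsive element (DRE) as ACCGAC and the heat shock element as 3 alternating blocks of GAA and TTC, each NN apart. A G-box can lie inside an ABRE match, so these shares are not independent. Of 1238 promoters of genes called higher with a log2 size of 1 or more, 25.1% held an ABRE (95% Wilson interval 22.8 to 27.6%, counting error only), against 7.64% of all 27443 promoters and 6.82% of genes not called. Of 922 promoters of genes that fell by as much, 2.28% held it. The G-box was in 21.9% and 4.34%, the DRE in 8.56% and 3.36%, and the heat shock element in 1.62% and 0.651%, against 7.68%, 5.7% and 0.481% of all promoters. The W-box went the other way, with 12.4% of the promoters of genes that rose and 19.6% of those that fell, against 14.2% of all. The evening element was in 4.12% and 2.39%, against 2.82% of all. A match is a description of letters and shows no binding.

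Lists differed in this too. An ABRE match was in 5 of 8 promoters of the seed genes that rose, and in 6 of 16 of that whole list. For clock genes it was in 6 of 8 that rose and 11 of 20 of the whole list. For suberin genes it was in 1 of 16 that rose and 1 of 18 of the whole list. The heat shock element was in 3 of 12 promoters of the heat shock protein genes that rose. Of the promoters below, APX2 (chr3:2955906-2956155, plus strand) and EM6 (chr2:16780369-16780618, minus strand) are shown for their ABRE, in capitals, and HSP17.4 (chr3:16984868-16985117, minus strand) and HSFA7B (chr3:23398986-23399235, plus strand) for their heat shock elements, in capitals. Each is the 250 bases before the gene start, 5′ to 3′ on the gene's strand. In EM6 the capitals span overlapping ABRE matches, with a G-box inside them, 32 to 41 bases before the start. In APX2 the ABRE match lies 200 to 206 bases before the start and overlaps a G-box. HSP17.4 and HSFA7B also held an ABRE match, and HSP17.4 a G-box, all left in lower case.
APX2: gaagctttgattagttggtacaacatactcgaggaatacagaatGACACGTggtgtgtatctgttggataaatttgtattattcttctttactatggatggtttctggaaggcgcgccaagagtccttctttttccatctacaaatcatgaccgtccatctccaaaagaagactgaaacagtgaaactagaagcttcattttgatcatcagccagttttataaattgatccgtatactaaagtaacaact
EM6: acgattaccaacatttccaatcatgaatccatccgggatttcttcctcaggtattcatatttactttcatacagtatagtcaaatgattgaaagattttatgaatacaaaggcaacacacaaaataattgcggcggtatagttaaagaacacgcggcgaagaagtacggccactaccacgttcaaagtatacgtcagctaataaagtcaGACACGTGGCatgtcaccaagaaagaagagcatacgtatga
HSP17.4: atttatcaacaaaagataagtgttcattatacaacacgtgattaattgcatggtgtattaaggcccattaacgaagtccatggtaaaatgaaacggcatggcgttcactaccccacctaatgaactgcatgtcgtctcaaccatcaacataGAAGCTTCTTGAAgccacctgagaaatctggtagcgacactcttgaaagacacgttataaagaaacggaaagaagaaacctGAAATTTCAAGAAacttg
HSFA7B: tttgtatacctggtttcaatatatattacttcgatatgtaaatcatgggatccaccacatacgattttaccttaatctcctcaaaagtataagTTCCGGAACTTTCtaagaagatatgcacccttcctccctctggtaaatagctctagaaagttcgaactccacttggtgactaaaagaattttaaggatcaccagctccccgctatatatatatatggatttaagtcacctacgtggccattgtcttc

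**Figure D2:**
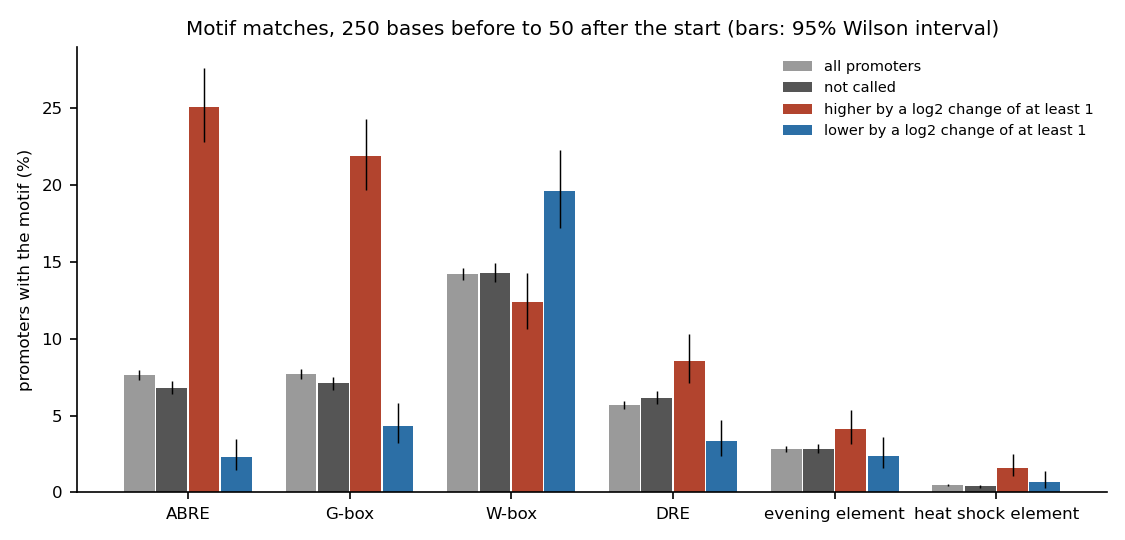
Share of promoters with at least 1 match to each motif (vertical axis, percent; bars are 95% Wilson intervals) for all promoters, genes not called, and genes called higher or lower past a log2 size of 1. The ABRE was in 25.1% of the promoters of genes that rose and 2.28% of those that fell, and the W-box had the opposite order, 12.4% and 19.6%.

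Suberin, the waxy polyester that seals the root endodermis and wounded tissue, had the largest share called higher of the 35 lists plotted, which leave out the treatment and tissue markers. Of 18 tested genes 16 rose and 0 fell, 13 of them past a log2 size of 1, with a median of 1.90. They covered each step of the pathway. Among the enzymes, GPAT7 and GPAT5, acyltransferases that join fatty acids to glycerol, had log2 changes of 5.42 ± 0.141 and 3.63 ± 0.227 (authors' deposited table). ASFT, which adds ferulate to the polymer, had 27.2, 31.8 and 20.2 junction RPM under mock and 245, 249 and 274 under ABA (log2 fold change 3.33 ± 0.105, adjusted p = 2.9e-216 by DESeq2 in the authors' deposited table). FAR4, a reductase that makes fatty alcohols, went from 7.15, 9.03 and 6.94 to 38.7, 45.6 and 42.1. In both genes the lowest ABA library lay far above the highest mock library. The hydroxylases CYP86B1 and CYP86A1 differed in size, at 2.78 ± 0.231 and 0.40 ± 0.133 in the authors' deposited table. The exporter ABCG6 stood at 3.95 ± 0.131 there and ABCG20 at 1.13 ± 0.0869. Among the regulators, MYB41, known to switch on suberin synthesis, had 1.04, 0.531 and 0.322 junction RPM under mock and 11.9, 14.9 and 20.4 under ABA. MYB9 had 1.49, 1.39 and 0.643 under mock and 12.4, 10.8 and 11.4 under ABA. MYB39, MYB93 and MYB53, factors of the same clade of suberin regulators, rose by 1.54 ± 0.362, 1.11 ± 0.122 and 0.85 ± 0.198 in the authors' deposited table, and MYB92 was at 0.24 ± 0.112 and not called. All 7 genes with a junction test passed limma, and their groups did not overlap.

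The Casparian strip, the lignin barrier of the same cell layer, moved little. Of 8 genes 1 rose and 3 fell, with a median of -0.20. CASP5, a scaffold protein of the strip, rose by 0.90 ± 0.147, while CASP4, CASP2 and CASP1 stood at -0.70 ± 0.137, -0.32 ± 0.111 and at -0.28 ± 0.102 in the authors' deposited table. The summed level of the 4 genes with junction reads was 59 to 64.1 RPM under mock and 50.8 to 58.1 under ABA, and no CASP gene was at 0.

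Cuticular wax genes, which coat the shoot, were all called: of 19 tested, 15 rose and 4 fell. The 4 that fell were DEWAX, a repressor of wax synthesis, the activator MYB30, the alcohol-forming reductase CER4 and the acyl-CoA synthetase LACS1. The authors' deposited table gave DEWAX -1.51 ± 0.137, CER4 -1.02 ± 0.178, MYB30 -0.77 ± 0.0816 and LACS1 -0.74 ± 0.063. On the other side stood the alkane-forming enzyme CER1, the elongases and the activator MYB96. CER1 had 11.6, 13.3 and 10.2 junction RPM under mock and 44.8, 39.3 and 39.3 under ABA. KCS2, an elongase of very long chains for wax and suberin, had 8.12, 9.43 and 5.92 under mock and 112, 107 and 112 under ABA, with no overlap. MYB96 rose by 1.77 ± 0.115, and the elongases KCS1 and CER6 by 1.15 ± 0.0635 and 1.05 ± 0.0639, in the authors' deposited table. WSD1, the wax ester synthase, had a log2 fold change of 6.56 ± 1.08 there, from 0.065, 0 and 0 junction RPM under mock to 0.491, 1.25 and 0.403, so its level was low in all libraries.

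**Figure D3:**
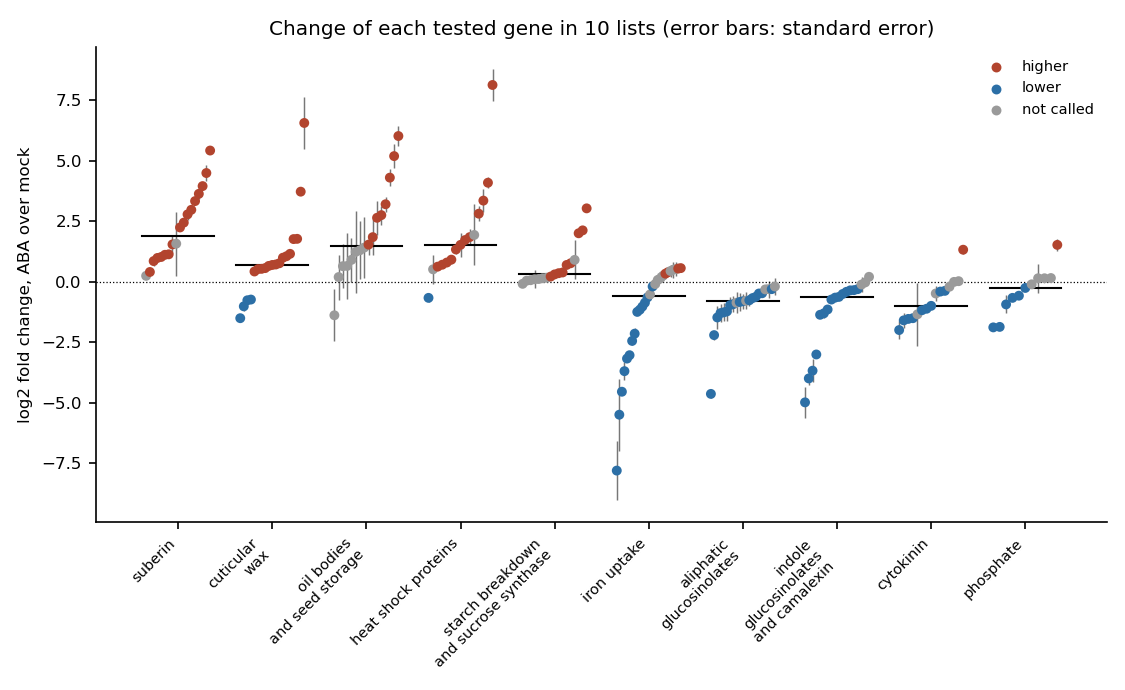
Deposited log2 fold change of ABA over mock (vertical axis) of each tested gene in 10 lists, sorted within a list; error bars are standard errors, horizontal lines list medians, red and blue points genes called higher and lower, grey points genes not called. Suberin lies above 0 throughout, with a median of 1.90, and iron uptake runs from -7.81 to 0.56.

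**Figure D4:**
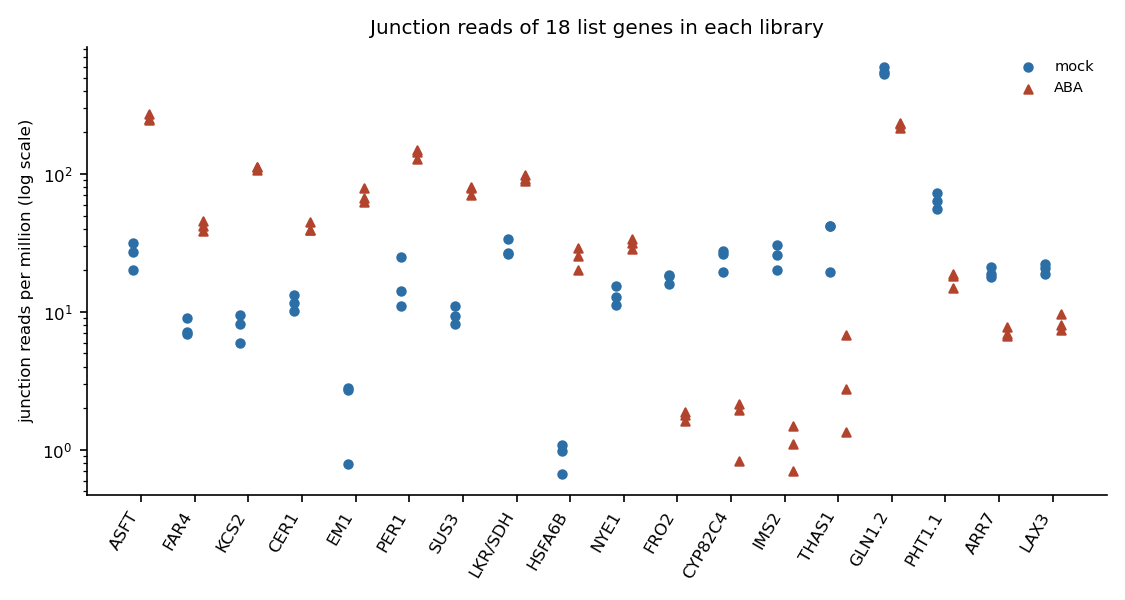
Junction reads RPM (log axis) of 18 list genes in each mock (blue circles) and ABA (red triangles) library. ABA is higher from ASFT to NYE1 and lower from FRO2 to LAX3. The groups do not overlap in any of the 18, but these were picked among called genes, which favours such separation. Over all genes with a junction test, the groups did not overlap in 18.6% with ABA higher and 23.9% with ABA lower.

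Genes of seed oil bodies and seed protection rose, while cruciferins and albumins, the main storage proteins, were not called. Of 16 genes 8 rose and 0 fell, each past a log2 size of 1. EM6 and EM1, hydrophilic proteins of dry seeds, stood at 6.02 ± 0.415 and at 5.19 ± 0.502 in the authors' deposited table. EM1 had 2.73, 0.797 and 2.83 junction RPM under mock and 78.8, 67.5 and 62.3 under ABA. PER1, a peroxiredoxin of seeds, had 25, 14.1 and 11.1 under mock and 145, 149 and 129 under ABA. Both groups were clear of each other. Oleosins, which coat oil bodies, rose as well, with OLEO2 at 4.30 ± 0.362 and OLEO1 at 2.64 ± 0.695 in the authors' deposited table, and so did the caleosin CLO1 and PAP85, a vicilin-like protein. The cruciferins and albumins that fill the seed had wide errors: CRA1 was at 1.3 ± 1.21 and CRC at 1.23 ± 1.69 in the authors' deposited table. The summed level of the 5 list genes with junction reads was 16.6 to 56.7 RPM under mock, the highest in mock value 1, and 196 to 273 under ABA.

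Genes that burn reserves rose by smaller amounts. Of 16 genes of peroxisomal fatty acid beta-oxidation and the glyoxylate cycle 11 rose and 0 fell, with a median of 0.29. ACX1, an acyl-CoA oxidase at the entry of the pathway, had 58, 54.8 and 55.2 junction RPM under mock and 137, 131 and 145 under ABA. It was the only member past a log2 change of 1, at 1.36 ± 0.0653 in the authors' deposited table. ACX2, which prefers long chains, stood at 0.92 ± 0.0807 there, isocitrate lyase (ICL), the marker enzyme of the glyoxylate cycle, at 0.72 ± 0.123, and the thiolase KAT2 at 0.51 ± 0.066. PCK1, which turns the products towards sugar, was at -0.08 ± 0.0859 in the authors' deposited table and not called.

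Heat shock genes were higher without heat. Of 15 tested chaperone genes 12 rose and 1 fell, with a median of 1.52. The small heat shock proteins HSP22.0, HSP17.6A and AT1G53540 stood at 8.13 ± 0.678, 2.81 ± 0.312 and at 1.84 ± 0.318 in the authors' deposited table, and HSP70 and the disaggregase HSP101 at 1.72 ± 0.135 and 0.79 ± 0.0823. AT1G52560, a small heat shock protein gene, had 0.91, 0.398 and 0.45 junction RPM under mock and 6.03, 7.63 and 8.59 under ABA. HSP101 had 5.91, 6.31 and 5.79 under mock and 11.9, 10.1 and 10.1 under ABA. Neither gene overlapped between groups. AT5G51440, of the same class, fell to -0.67 ± 0.168 in the authors' deposited table. HSP17.4, whose promoter is printed above, stood at 3.35 ± 0.462 there, on a mean of 32.1 normalized counts.

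Of 12 tested heat shock factors, which include activators of these genes (class A) and repressors (class B), 7 rose and 2 fell. HSFA6B, a factor known to act in the ABA response, had 0.975, 0.664 and 1.09 junction RPM under mock and 20.3, 25.6 and 28.9 under ABA. Its relative HSFA6A stood at 4.48 ± 0.175 in the authors' deposited table, and HSFB2A, of class B, at 1.66 ± 0.114. HSFA1A, a master factor of the heat response, was at 0.26 ± 0.113 there and not called. HSFA2 was called at 1.0 ± 0.246 in the authors' deposited table, but its junction reads overlapped, at 0.78, 0.598 and 0.965 under mock and 0.842, 1.18 and 0.805 under ABA. HSFA7A and HSFA4A fell to -0.64 ± 0.172 and -0.52 ± 0.108 in the authors' deposited table. Of 12 enzymes that make or remove reactive oxygen 6 rose and 1 fell. APX2, a cytosolic ascorbate peroxidase known for its heat and light induction, led them at 6.95 ± 0.882 in the authors' deposited table. Its junction reads were 0, 0.0664 and 0.129 RPM under mock and 1.19, 1.94 and 2.48 under ABA. AOX1A, an oxidase of mitochondria, RBOHF, a source of superoxide, and the catalase CAT1 rose by 0.79 ± 0.103, 0.65 ± 0.0898 and 0.63 ± 0.109 in the authors' deposited table. The cytosolic APX1 fell, at -0.21 ± 0.0891 in the authors' deposited table.

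Some genes of sucrose and starch use rose. Of 17 genes 9 rose and 0 fell, with a median of 0.30. SUS3, a sucrose synthase, had 11.1, 9.3 and 8.23 junction RPM under mock and 80.7, 70 and 79.1 under ABA. SUS1 had 12.7, 10.1 and 6.11 under mock and 41.7, 35.2 and 43.6 under ABA, and both were far above mock. BAM1, the beta-amylase known to act under osmotic stress, rose by 2.0 ± 0.0795, while BAM3, the main beta-amylase of leaf starch at night, was at -0.09 ± 0.0658 in the authors' deposited table and not called. SUS4 and SEX1, the kinase that opens starch to breakdown, rose by 0.76 ± 0.113 and 0.69 ± 0.0904 there. In junction reads, mock value 3 was the lowest mock library for 12 of 13 genes of this list.

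Sugar carriers went both ways: of 20 genes of sugar transport and trehalose phosphate 10 rose and 5 fell. SWEET15, a sugar exporter of senescing leaves and seeds, had 2.92, 2.79 and 1.74 junction RPM under mock and 45.5, 52.5 and 76.5 under ABA. SWEET4 had 1.75, 1.66 and 1.09 under mock and 14.2, 14 and 29.9 under ABA. In each, ABA value 3 was the highest library. The monosaccharide carriers ESL1 (AT1G08920) and ERD6 (AT1G08930), which have successive identifiers, moved in opposite directions. ESL1 had 31.1, 29.4 and 29.4 under mock and 99.1, 112 and 111 under ABA, and ERD6 had 83.6, 72.3 and 88.9 under mock and 22, 19.7 and 19.3 under ABA. The authors' deposited table gave ESL1 1.99 ± 0.0897 and ERD6 -2.08 ± 0.0821. The sucrose carrier SUC1 and the hexose carrier STP4 fell to -1.23 ± 0.0702 and -1.12 ± 0.0745 there, and the phloem loader SUC2 rose by 0.43 ± 0.0728.

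In the lists for breakdown of amino acids, chlorophyll and cell contents, genes were called higher and none lower. Of 14 genes of branched-chain amino acid and lysine breakdown 8 rose and 0 fell, but mock value 3 was the highest mock library in 14 of 14. The junction reads of the called MCCB and DIN4 overlapped between groups, and limma called 10 of the 14 higher, or 6 to 12 with a single library left out. LKR/SDH, the bifunctional enzyme of lysine breakdown, had 26.8, 26.3 and 33.6 junction RPM under mock and 91.9, 88.3 and 98.7 under ABA. MGL, which splits methionine, rose by 1.51 ± 0.141, AT1G21400, a gene of branched-chain keto acid breakdown, by 1.39 ± 0.31, and IVD, an acyl-CoA dehydrogenase of leucine breakdown, by 1.03 ± 0.134 in the authors' deposited table. Of 13 tested genes of chlorophyll breakdown and senescence 10 rose and 0 fell, with a median of 0.83. The senescence factor NAP and the NAC factor NAC6 (also known as ORE1) stood at 3.83 ± 0.217 and at 2.21 ± 0.13 in the authors' deposited table. NYE2 stood at 2.2 ± 0.175 there. Its relative NYE1, which removes magnesium from chlorophyll, had 11.2, 15.5 and 12.9 junction RPM under mock and 31.8, 28.7 and 33.6 under ABA. SAG12, the classic marker of late senescence, was listed at 0. Of 10 chlorophyll synthesis and early light genes 2 rose (CHLH by 0.23 ± 0.0841 and CAO by 0.16 ± 0.0681 in the authors' deposited table) and 0 fell, a share near the background, and in junction reads neither passed (limma adjusted p = 0.11 and 0.079). Of 13 autophagy genes 11 rose and 0 fell, none by a log2 change of 1. Mock value 3 was the highest mock library in 12 of 13 of them. ATG8H, a membrane tag of autophagosomes, had 34.9, 39 and 42.6 junction RPM under mock and 67.7, 78.6 and 85.4 under ABA, with no overlap. Next came ATG8A, ATG8E and ATG18A, at 0.78 ± 0.0984, 0.63 ± 0.135 and 0.51 ± 0.0783 in the authors' deposited table.

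Most called genes of iron uptake were lower, while its regulators were split. Of 26 genes 14 fell and 4 rose, with a median of -0.59, and 11 of those that fell passed a log2 size of 1. Roots of Arabidopsis acidify the soil, secrete coumarins, reduce iron and import it, and members of each step were among the genes that fell. For reduction, the ferric reductase FRO2 had 15.9, 18.5 and 18.3 junction RPM under mock and 1.89, 1.8 and 1.61 under ABA (DESeq2 adjusted p = 9.6e-126 in the authors' deposited table). The importer IRT1 stood at -4.55 ± 0.0983 in the authors' deposited table and NRAMP1 at -1.16 ± 0.0899. For acidification, the proton pump AHA2 had 471, 462 and 406 under mock and 220, 215 and 199 under ABA. For coumarins, the synthesis enzyme F6'H1 stood at -3.18 ± 0.13 in the authors' deposited table, the exporter ABCG37 at -0.87 ± 0.0677 and AT3G12900, an oxidase of the same pathway, at -7.81 ± 1.22. CYP82C4, which modifies coumarins further, had 26.3, 27.8 and 19.6 junction RPM under mock and 1.96, 0.833 and 2.15 under ABA. No library of either group reached the other in FRO2, AHA2 or CYP82C4.

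The regulators of iron uptake were split. FIT1, the factor that switches on IRT1 and FRO2, had 9.42, 11.6 and 11.3 junction RPM under mock and 1.4, 2.15 and 2.28 under ABA. MYB10, a factor of iron shortage, stood at -2.15 ± 0.22 in the authors' deposited table. The partners of FIT1 did not fall: BHLH101 rose by 0.56 ± 0.18, while BHLH38, BHLH39 and BHLH100 were at 0.44 ± 0.257, 0.07 ± 0.269 and 0.52 ± 0.298 in the authors' deposited table and not called. BTS, a ligase that restrains the iron response, and PYE, a repressor, rose by 0.54 ± 0.114 and 0.39 ± 0.115 there. The ferritins FER1, FER3 and FER4, which store iron, were not called. The root markers above were lower by a median of -0.25, and their part in these changes was not tested.

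Phosphate, sulfate and nitrogen carriers were among the genes that fell. Of 11 phosphate genes 6 fell and 1 rose. The root importer PHT1.1 had 63.6, 73.2 and 55.8 junction RPM under mock and 14.9, 18.3 and 18.7 under ABA, and PHT1.2 stood at -1.89 ± 0.126 in the authors' deposited table. PHT1.1 and PHT1.2 are close copies, so how reads were shared between them is uncertain. PHO1, the exporter to the xylem, fell to -0.58 ± 0.0718 in the authors' deposited table. PAP17, a phosphatase also known from senescence, rose from 22.5, 30.9 and 22.2 to 71.7, 65.6 and 74.6 junction RPM. PHT1.4 stood at -0.67 ± 0.123 in the authors' deposited table. SPX1, a marker of phosphate shortage, was at 0.15 ± 0.14 in the authors' deposited table and not called.

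Of 16 sulfate genes 9 fell and 1, SULTR3.1, rose. LSU1, a gene of sulfur shortage, and the importer SULTR1.1 stood at -0.71 ± 0.241 and at -0.68 ± 0.26 in the authors' deposited table. The root importer SULTR1.2 had 57.6, 64.1 and 48.5 junction RPM under mock and 25, 25.7 and 26.2 under ABA, and the plastid carrier SULTR3.1 had 2.4, 2.52 and 1.74 under mock and 5.26, 4.1 and 5.77 under ABA. APR3, which reduces activated sulfate, and the sulfite reductase SIR stood at -0.67 ± 0.109 and at -0.50 ± 0.0766 in the authors' deposited table. APK1 and APK2, which supply sulfate for glucosinolates, were called lower, but their junction reads overlapped between groups. Of 21 tested nitrogen genes 7 fell and 3 rose. GLN1.2, a cytosolic glutamine synthetase, had 553, 593 and 529 junction RPM under mock and 214, 231 and 236 under ABA. NPF7.3, which loads nitrate into the xylem, had 96.9, 86.9 and 97.8 under mock and 39.1, 44.6 and 39.1 under ABA. The ammonium importer AMT1.2 stood at -1.04 ± 0.114 in the authors' deposited table and the nitrate reductase NIA1 at -0.61 ± 0.0897. Its partner NIA2 was at -0.07 ± 0.0907 there, and the plastid glutamine synthetase GLN2 at 0.04 ± 0.0518; neither was called.

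Glucosinolates, the sulfur-rich defence compounds of the cabbage family, had 0 genes called higher. Of 21 genes of the aliphatic branch, built from methionine, 16 fell, with a median of -0.81. IMS2, a synthase that lengthens methionine chains, had 26, 30.5 and 20.3 junction RPM under mock and 0.702, 1.11 and 1.48 under ABA (DESeq2 adjusted p = 4.3e-136 in the authors' deposited table). BCAT4, the aminotransferase at the start of the branch, had 68.8, 89.6 and 44.4 under mock and 17.3, 17.2 and 37.6 under ABA. The groups did not overlap in either gene, but in BCAT4 mock value 3 and ABA value 3 lay close together. The same libraries stood out across the branch: mock value 3 was the lowest mock library in 12 of 12 genes with junction reads, ABA value 3 the highest ABA library in 10 of 12. Leaving out a single library moved the median junction change from -0.69 to between -0.58 and -0.83, with 9 or 10 genes called lower. Mock value 3 was also the lowest mock library for 11 of 11 sulfate genes and 8 of 8 phosphate genes, and without it the median junction change of the sulfate genes moved from -0.28 to -0.57. The authors' deposited table gave the chain-length enzyme IMD1 -1.3 ± 0.374, the plastid carrier BAT5 -1.23 ± 0.396 and MYB28, the main activator, -0.49 ± 0.107, whose call was lost in the junction reads (limma adjusted p = 0.25). CYP79F2 stood at -2.21 ± 0.189 there and its close copy CYP79F1 at -0.87 ± 0.446, which was not called.

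In the indole branch, built from tryptophan and shared with the antifungal compound camalexin, 15 of 18 tested genes fell, with a median of -0.65. Only 5 genes of this list had a junction test, with a median junction change of -0.09, 2 called lower and 1 higher. The methyltransferases, the hydroxylase and the camalexin and entry enzymes named next had no value per library. The methyltransferases IGMT1 and IGMT2 and the hydroxylase CYP81F2, which finish indole glucosinolates, stood at -3.01 ± 0.127, -4.00 ± 0.259 and at -3.68 ± 0.478 in the authors' deposited table. The camalexin enzymes CYP71A12 and PAD3 were at -4.99 ± 0.63 and -1.31 ± 0.199 there. The entry enzymes CYP79B3 and CYP79B2 fell to -1.15 ± 0.083 and -0.66 ± 0.133 in the authors' deposited table. IGMT1 to IGMT3, and CYP71A12 with CYP71A13, are near-identical neighbours, and how the authors' counting treated shared reads is not given in the sources used here. ASA1, which makes the tryptophan precursor, had 31.9, 27.5 and 27.5 junction RPM under mock and 19.5, 21.9 and 18.1 under ABA. The activator MYB34 was at 0.20 ± 0.0874 in the authors' deposited table and not called, but its junction reads were higher by 0.29 ± 0.09 on the log2 scale (limma adjusted p = 0.029), with no overlap. MYB51 was called at -0.35 ± 0.116 there, but its junction reads gave 0.10 and overlapped between groups.

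In the gene clusters for root triterpenes, 5 of 7 genes fell and 1 rose. In the thalianol cluster on chromosome 5, THAS1 (chr5:19456837-19461706), which makes the ring skeleton, had 42, 42.3 and 19.6 junction RPM under mock and 6.81, 2.78 and 1.34 under ABA. Its tailoring enzymes CYP708A2 and CYP705A5 and the acyltransferase AT5G47980 fell as well, to -2.20 ± 0.492, -2.46 ± 0.655 and -3.00 ± 0.739 in the authors' deposited table. The marneral synthase MRN1, of the other cluster, had 3.25, 3.65 and 2.38 under mock and 23.2, 23 and 13.4 under ABA. Neither synthase overlapped between groups. In the cluster of MRN1 itself, CYP71A16 fell to -0.38 ± 0.144 and CYP705A12 was at 0.09 ± 0.191 and not called in the authors' deposited table.

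Phenylpropanoids were mostly not called: of 24 flavonoid and anthocyanin genes 4 rose and 3 fell. TT8, a regulator of anthocyanins, PAP1, an activator, and MYB111, an activator of flavonols, stood at 1.32 ± 0.26, 0.90 ± 0.264 and at -0.69 ± 0.192 in the authors' deposited table. The entry enzyme C4H had 264, 262 and 224 junction RPM under mock and 381, 360 and 398 under ABA. The sister enzymes PAL1 and PAL2 moved apart, at 0.40 ± 0.104 and -0.49 ± 0.0824 in the authors' deposited table. The chalcone synthase TT4 was at -0.03 ± 0.133 there. F3H was listed with a mean of 1.85 normalized counts although its deepest event held a mean of 1142 junction reads per library. It is 1 of 39 genes with at least 100 mean junction reads and a gene mean under 10, and 39 of 39 overlap another annotated gene, against 34.1% of genes with that many junction reads. No statement is made here on its change.

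Immune genes had 0 called higher and 10 of 21 tested called lower, with a median of -0.43. FMO1 and ALD1, which make the signal of systemic resistance, stood at -3.38 ± 0.481 and at -0.80 ± 0.289 in the authors' deposited table, on means of 33.5 and 64.3 normalized counts. RBOHD, the oxidase of the immune oxidative burst, had 16.1, 14.9 and 15.3 junction RPM under mock and 6.46, 9.16 and 7.85 under ABA. FLS2, the receptor of bacterial flagellin, had 5.46, 3.78 and 7.27 under mock and 2.25, 1.8 and 3.36 under ABA. Both were lower in every ABA library than in any mock library. CBP60G, a regulator of salicylic acid synthesis, and NHL10, a marker of immune responses, stood at -0.89 ± 0.214 and at -0.80 ± 0.219 in the authors' deposited table. The junction reads of CBP60G overlapped and gave -0.21 (limma adjusted p = 0.65), and those of ALD1 gave -0.53 (limma adjusted p = 0.15). PAD4 and EDS1, partners in basal immunity, fell to -0.57 ± 0.109 and -0.32 ± 0.0805 in the authors' deposited table. ICS1, which makes most salicylic acid, was at 0.18 ± 0.082 there, and PR1 at 0.27 ± 0.345, and neither was called.

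Among hormones, cytokinin had the largest share called lower. Of 15 genes 9 fell and 1 rose, with a median of -1.0. Type-A response regulators, which cytokinin induces and which damp its signal, made up 6 of the 9. ARR7 had 21.1, 17.8 and 19 junction RPM under mock and 6.95, 6.66 and 7.78 under ABA. ARR5 had 24.8, 27.6 and 26.9 under mock and 10.6, 12.7 and 12.5 under ABA, and neither gene overlapped. ARR15 stood at -1.60 ± 0.315 in the authors' deposited table, but its junction reads overlapped between groups. The synthesis gene IPT3 and the oxidase CKX4, which degrades cytokinin, stood at -1.12 ± 0.133 and at -1.51 ± 0.174 in the authors' deposited table. ARR16 was called at 1.32 ± 0.183 there, but its junction reads overlapped, at 3.77, 3.92 and 4.89 under mock and 3.51, 4.51 and 4.9 under ABA.

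Auxin genes were split evenly, 8 higher and 8 lower of 30, shares not far above the background of 19.8% and 18.4%. The influx carriers LAX3 and AUX1 were among those that fell. LAX3 had 22.1, 20.9 and 18.7 junction RPM under mock and 8, 9.65 and 7.45 under ABA, and AUX1 had 83.8, 82.6 and 87.4 under mock and 51.2, 53.9 and 49.7 under ABA. Of the PIN efflux carriers, PIN2 and PIN3 fell slightly, to -0.39 ± 0.0763 and -0.29 ± 0.0704 in the authors' deposited table, and PIN4 and PIN7 were not called. The synthesis genes YUC9 and TAA1 went apart, at 1.05 ± 0.158 and -0.41 ± 0.0843 in the authors' deposited table. GH3.5, which conjugates auxin, and IAA30, a repressor of auxin response, rose by 0.84 ± 0.0976 and 1.1 ± 0.266 there. Among 23 gibberellin genes 6 rose and 4 fell, shares near the same background. GA2OX6, which inactivates the hormone, had 5.13, 5.64 and 5.66 junction RPM under mock and 20.9, 20.9 and 29 under ABA. GASA6, a gibberellin-induced growth gene, had 401, 428 and 475 under mock and 171, 221 and 218 under ABA. Both were clear of overlap. The DELLA repressor RGL3 rose by 0.74 ± 0.125 in the authors' deposited table, and GA2OX2 fell to -0.71 ± 0.158, while RGA and GAI were at 0.03 ± 0.0646 and 0.09 ± 0.0913 and not called.

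Of 24 tested jasmonate genes 7 rose and 7 fell. CYP94B3 and ST2A, which inactivate the hormone, stood at 3.71 ± 0.118 and at 2.16 ± 0.141 in the authors' deposited table. VSP2, a storage protein induced by jasmonate, rose by 1.02 ± 0.288 there. The JAZ repressors divided: JAZ12 had 89.8, 92.4 and 88.5 junction RPM under mock and 128, 129 and 131 under ABA, and JAZ6 had 19.9, 20.8 and 21.6 under mock and 6.53, 8.54 and 8.86 under ABA. MYC2, the central factor, was listed at 0 and no statement is made on it. Of 17 ethylene genes 6 rose and 7 fell. The synthases of the ethylene precursor differed among themselves, with ACS7 at 2.05 ± 0.153 and ACS5 at -1.90 ± 0.254 in the authors' deposited table. The receptor ERS2 rose by 1.05 ± 0.106 there. The oxidase ACO1, which releases ethylene, fell to -1.16 ± 0.127 there. Of 11 brassinosteroid genes 2 rose and 4 fell, and BES1, the activator of the response, had 95.7, 96.5 and 101 junction RPM under mock and 151, 139 and 154 under ABA. The synthesis enzymes BR6OX1 and DWF4 and the inactivating CYP734A1 fell to -0.66 ± 0.175, -0.33 ± 0.112 and -0.34 ± 0.106 in the authors' deposited table, where the calls of DWF4 and CYP734A1 were lost in junction reads (limma adjusted p = 0.077 and 0.41).

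Of 20 clock genes 8 rose and 2 fell, by small amounts. LNK1, a coactivator of the morning loop, had 30.3, 28.6 and 24.6 junction RPM under mock and 49.6, 47.3 and 51.5 under ABA. CCA1, the morning repressor, had 48.3, 43.8 and 43.3 under mock and 58.5, 63 and 72.8 under ABA, while its partner LHY was at 0.13 ± 0.0825 in the authors' deposited table and not called. BOA, a relative of the clock factor LUX, and the repressor PRR9 rose by 1.01 ± 0.131 and 0.48 ± 0.111 there, but the junction reads of PRR9 overlapped between groups. Of 22 tested cell cycle genes 0 rose and 6 fell, all by less than 0.5, beside 19.8% and 18.4% of all tested genes. PCNA1, the replication clamp, had 40.4, 40.5 and 40.9 junction RPM under mock and 27.8, 27.3 and 25.4 under ABA, without overlap. The D-type cyclins CYCD3.1, CYCD3.2 and CYCD3.3 fell to -0.24 ± 0.0728, -0.19 ± 0.0704 and -0.27 ± 0.112 in the authors' deposited table. MCM2, of the replication helicase, stood at -0.24 ± 0.0742 there. In junction reads CYCD3.1 and MCM2 overlapped between groups and lost their calls (limma adjusted p = 0.12 and 0.46). MCM5, at -0.20 in the authors' deposited table, lost its call as well, at -0.19 in junction reads. The mitotic genes of the B cyclin and CDKB families were not called in the authors' deposited table, but CYCB1.1 was lower in junction reads by a log2 change of -0.46 (limma adjusted p = 0.018), with no overlap.

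Of 6 cellulose synthase subunits 4 rose and 0 fell. They were CESA1 of the growing wall and CESA4, CESA7 and CESA8 of the secondary wall, at 0.54 ± 0.0776, 0.41 ± 0.0744, 0.55 ± 0.112 and 0.57 ± 0.0869 in the authors' deposited table. CESA1 had 183, 174 and 167 junction RPM under mock and 259, 251 and 235 under ABA, while CESA8 overlapped and did not pass in junction reads (limma adjusted p = 0.1). Of 13 root hair genes 3 rose and 5 fell. RSL2, a factor of hair growth, stood at -1.33 ± 0.234 and WER, which specifies cells without hairs, at -0.76 ± 0.16 in the authors' deposited table. CPC, a promoter of hair fate, was at -0.65 ± 0.201 there and the wall protein PRP1 at 0.60 ± 0.143. CPC did not pass in junction reads (limma adjusted p = 0.051). The summed level of the 6 hair genes with junction reads was 51 to 55.8 RPM under mock and 49.1 to 56.6 under ABA, which overlapped. Of 11 stomatal genes 0 rose and 5 fell. EPF2, a peptide that limits stomatal number, stood at -0.87 ± 0.19 and MYB60, a guard cell factor, at -0.48 ± 0.097 in the authors' deposited table. The potassium channel KAT1 (AT5G46240) and the peptide EPFL9, which promotes stomata, fell to -0.48 ± 0.122 and -0.34 ± 0.14 there. The summed level of 6 of them was 74.8 to 83.4 under mock and 53.8 to 63.5 under ABA.

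Groups defined only by a shared symbol were scanned to reach families outside the lists, with 231 stems of at least 8 tested genes. They were ranked by their own values, so the shares are descriptions. Besides cold-regulated COR genes (7 of 8 higher), the highest shares were in IRX genes of xylan and secondary wall synthesis (8 of 10 higher), NET proteins that link actin to membranes (7 of 9), LACS acyl-CoA synthetases (6 of 8) and FTSH proteases of plastids and mitochondria (7 of 10). The 2 members with the largest change were COR15A (4.24) and COR15B (3.1), IRX15 (0.86) and IRX14-L (0.78), NET4B (0.65) and NET1D (0.42), LACS8 (2.03) and LACS1 (-0.74), and FTSH6 (1.88) and FTSH8 (0.56), as log2 fold changes in the authors' deposited table. The SIP (6 of 8), RD (6 of 8) and RAB (8 of 11) stems join unrelated genes that share letters, with SIP3 (1.55) and SIP1 (1.27), RD20 (6.40) and RD26 (3.36), and RAB18 (4.70) and RAB28 (3.28) at their heads in the authors' deposited table. Lower shares led in MCM replication helicases (6 of 8 lower), MLP proteins (7 of 10) and MSRB methionine sulfoxide reductases (6 of 9). Others were CPN chaperonins and PRMT arginine methyltransferases (5 of 8 each), RPL ribosomal proteins (12 of 21) and genes that share the letters TOC (6 of 11). Their largest log2 fold changes in the authors' deposited table were MCM10 (-0.39) and MCM6 (-0.37), MLP31 (2.37) and MLP34 (-2.18), MSRB9 (-1.73) and MSRB8 (-1.48), CPN10 (-0.35) and Cpn60beta2 (-0.34), PRMT1A (-0.70) and PRMT3 (-0.52), RPL3B (-0.52) and RPL23AB (-0.41), and TOC64-V (-0.61) and TOC64-III (-0.42). MLP31 thus went against its family. Of the PYL receptors of ABA itself 5 of 9 fell, with PYL6 at -5.72 and PYL4 at -3.45 in the authors' deposited table. The MCM, RPL, CPN and TOC changes were small, with medians of -0.22, -0.17, -0.21 and -0.23.

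Splicing changed in few events. The inclusion level is the share of the form that keeps the intron or exon among the junction reads of that event, corrected for length. The authors estimated it with rMATS. It does not cover reads of the gene outside the event, so it is not a share of all its transcripts. In each group, 161122 events averaged 10 or more junction reads per library. Of these, 222 in 176 genes (0.138%) were called, by the authors' false discovery rate (FDR) below 0.05 and a change of 0.1 or more in inclusion. Inclusion was higher under ABA in 105 (0.0652%) and lower in 117 (0.0726%). Retained introns made up 137 of them, 68 higher and 69 lower, or 0.276% of 49667 introns (0.137% and 0.139%). Skipped exons gave 29, alternative donor sites 18 and alternative acceptor sites 38. The called events were shallow, with a median of 31.5 junction reads per library against 223 for all tested. The inclusion levels of the groups did not overlap in 181 of 222, against 6.15% of all tested events. The call was made on these same levels, so it favours such separation. In a limma fit of the logits, 47 of the 222 passed.

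Called introns differed from the other tested introns in their position and starting level. Among 49667 tested introns, 67.3% lay between coding exons, 2.99% in a 5′ untranslated region (UTR) and 28.4% matched no annotated intron. Of the 68 retained more under ABA, 44.1% were coding and 19.1% in a 5′ UTR, and of the 69 retained less, 27.5% and 11.6%, with 53.6% not annotated. Their median lengths were 108 and 107 bases, against 98, and their GC content 33.3% and 34%, against 33.6%. The median mock level was 0.551 and 0.959, against 0.0353 for all, which the call itself favours since a lower level needs room to fall. An in-frame stop lay in 93.3% and 78.9% of the coding ones, against 86.7%. Of 174 tested genes with a called event 33.3% were called higher and 9.77% lower at the gene level, against 22.4% and 18.7% of 13355 genes with deep events and no call.

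The introns shown next are the coding ones among the 12 largest called differences with 20 or more reads in every library, and that of the suberin regulator MYB9. Larger differences were called at lower depth. Each is printed 5′ to 3′ on the gene's strand, with capitals for the letters at both splice sites and for the first stop codon in the frame of the upstream exon. They are CEL5 (chr1:8095965-8096045, plus strand), ARFD1B (chr1:495683-495756, minus strand), SAL2 (chr5:25616891-25617021, plus strand), GUN1 (chr2:13387657-13387838, minus strand) and MYB9 (chr5:5516584-5516697, plus strand), in TAIR10 coordinates.
CEL5: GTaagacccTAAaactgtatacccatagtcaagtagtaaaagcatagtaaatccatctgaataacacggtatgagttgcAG
ARFD1B: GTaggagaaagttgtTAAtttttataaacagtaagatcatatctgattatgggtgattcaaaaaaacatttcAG
SAL2: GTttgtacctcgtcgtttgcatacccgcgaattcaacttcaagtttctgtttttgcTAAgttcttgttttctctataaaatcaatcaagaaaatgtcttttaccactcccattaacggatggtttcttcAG
GUN1: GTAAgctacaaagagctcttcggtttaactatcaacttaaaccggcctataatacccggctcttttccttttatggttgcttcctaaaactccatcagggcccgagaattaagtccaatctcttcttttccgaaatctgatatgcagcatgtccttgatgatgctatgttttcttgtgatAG
MYB9: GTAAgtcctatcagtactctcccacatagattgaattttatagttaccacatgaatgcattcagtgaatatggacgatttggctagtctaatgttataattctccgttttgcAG

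CEL5, a root cap cellulase, had the largest difference among the called events that held 20 or more junction reads in each of the 6 libraries. Its intron was kept at levels of 0.328, 0.321 and 0.362 under mock and 0.670, 0.768 and 0.876 under ABA, on 136 to 345 junction reads per library. The mean rose by 0.434, from 0.337 ± 0.022 (SD) to 0.772 ± 0.103. The CEL5 gene fell at the same time, to -0.96 ± 0.0861 in the authors' deposited table. ARFD1B, a small GTPase gene, was kept at 0.050, 0.084 and 0.130 under mock and 0.603, 0.408 and 0.212 under ABA, on 20 to 52 reads. SAL2, a phosphatase gene listed at 0 in the gene table, had 0.696, 0.647 and 0.639 under mock and 1, 1 and 0.879 under ABA. In GUN1, the plastid protein of retrograde signalling, retention was lower, at 0.920, 0.947 and 1 under mock and 0.778, 0.564 and 0.714 under ABA. The GUN1 event held only 24 to 43 junction reads per library, in a gene that averaged 32288 normalized counts. The groups did not overlap in any of these 4 events, and the spread within ABA was widest in ARFD1B. The limma fit of the logits kept the calls of CEL5 and ARFD1B (adjusted p = 7.5e-21 and 0.0071) but not those of SAL2 and GUN1 (adjusted p = 0.39 and 0.36).

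Introns of 5′ UTRs changed in both directions. ERD15, a negative regulator of ABA responses, kept its intron at 0.644, 0.617 and 0.624 under mock and 0.972, 0.898 and 0.918 under ABA, on 212 to 354 reads. The difference was 0.301, with SDs of 0.014 and 0.039, and the gene rose by 0.40 ± 0.0968 in the authors' deposited table. AT5G03500, a Mediator subunit gene, had 0.452, 0.524 and 0.536 under mock and 0.774, 0.864 and 0.727 under ABA. ACLB-1, a subunit of ATP-citrate lyase, had 0.761, 0.711 and 0.768 under mock and 0.556, 0.449 and 0.372 under ABA. Neither overlapped between groups, and neither gene was called. By limma ERD15 and ACLB-1 passed (adjusted p = 5.2e-12 and 0.0037), and AT5G03500 did not (adjusted p = 0.086).

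The other large differences lay in AT3G10820 (-0.286, a transcription elongation factor gene), the non-coding RNA genes AT1G09023 (-0.284) and AT3G46658 (0.276), and 2 skipped exons. In AT1G78780 the exon was included at 0.947, 1 and 0.842 under mock and 0.568, 0.455 and 0.707 under ABA. In AT1G18390, a kinase gene, it was included at 0.121, 0.144 and 0.130 under mock and 0.583, 0.228 and 0.392 under ABA, on 25 to 37 reads under ABA. AT3G46658 and AT1G18390 passed limma (adjusted p = 0.0011 and 0.0028), and AT3G10820, AT1G09023 and AT1G78780 did not (adjusted p = 0.57, 0.089 and 0.096). The intron listed for AT1G09023 lies in the annotation of another gene.

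Of the pathway genes above, 4 held called events. MYB9, the suberin regulator, kept its intron at 0.343, 0.250 and 0.373 under mock and 0.106, 0.062 and 0.138 under ABA. The spliced form thus gained share in this event as the gene rose by 2.97 ± 0.216 in the authors' deposited table. KAT5, a thiolase of beta-oxidation with a cytosolic and a peroxisomal form, had 4 overlapping called events, with differences of 0.174 to 0.183. Its shortest exon of these was included at 0.313, 0.303 and 0.358 under mock and 0.491, 0.490 and 0.514 under ABA, on 246 to 477 reads, while the gene was at -0.23 ± 0.142 in the authors' deposited table and not called. SEX1 kept an unannotated intron at 0.904, 0.941 and 1 under mock and 0.799, 0.750 and 0.794 under ABA. That event held 26 to 58 junction reads per library, against 1754 to 2958 at the deepest event of SEX1. In DPE1, an enzyme of starch breakdown, the difference was -0.534 but rested on 5 to 20 reads per library. In none of the 4 genes did the groups overlap. MYB9 and KAT5 passed limma, with adjusted p = 8.8e-05 for MYB9, and SEX1 and DPE1 did not (adjusted p = 0.69 and 0.42).

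**Figure D5:**
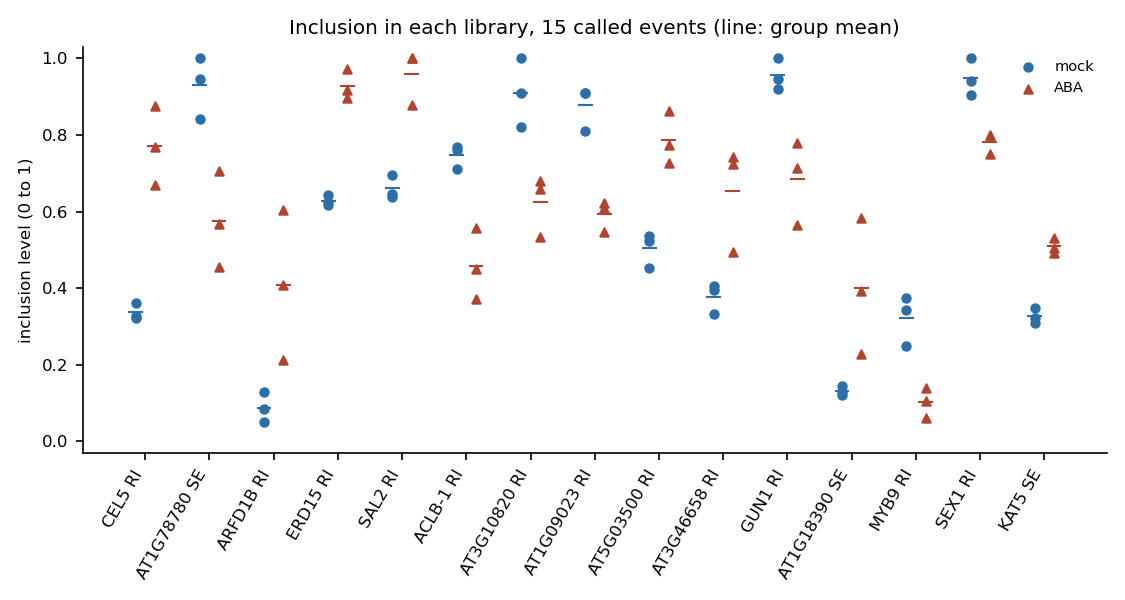
Inclusion level (0 to 1) in each mock (blue circles) and ABA (red triangles) library for 15 called events, with group means as lines; RI marks a retained intron and SE a skipped exon. CEL5 rises from a mean of 0.337 to 0.772, MYB9 falls from 0.322 to 0.102, and no event shown has overlapping groups.

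Of 23 splicing factor genes 2 rose and 2 fell, a share below the background. The RNA-binding proteins GRP8 and GRP7, clock-linked regulators of splicing, were those that fell. GRP8 had 885, 834 and 679 junction RPM under mock and 427, 420 and 397 under ABA. GRP7 had 2530, 2538 and 2274 under mock and 1926, 1803 and 1668 under ABA. SR30, an SR protein, had 68.2, 71.6 and 67.7 under mock and 103, 97.1 and 91.1 under ABA, and rose by 0.51 ± 0.0674 in the authors' deposited table, where SR34B was at 0.25 ± 0.0961 with overlapping junction reads (limma adjusted p = 0.35). GRP8, GRP7 and SR30 did not overlap between groups.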

How the data were processed

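Gene values came from the authors' deposited table of ABA against mock: a mean signal per gene (normalized counts over the 6 libraries), a log2 fold change with its standard error, a Wald statistic (a score) and p-values with adjusted p-values. Fold changes were unshrunken, since their ratio to the standard error equalled the statistic within 5.6e-07. STAR, featureCounts and DESeq2, and the build TAIR10, are named in the submitters' processing notes with no versions or roles. The file names of the splicing tables name rMATS, and per the file headers they hold, for each event, junction reads and inclusion levels (fractions) per library, the deposited inclusion difference (a score) and p-values with FDR. The order of the 3 values in a cell was not tied to the labelled replicate numbers, so libraries are called value 1 to 3. The strand setting and the treatment of reads shared by overlapping genes are not given in the sources used here.

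In 59.68% of events the commas between the reads of the libraries were lost. Each digit string was split at the places that gave back the authors' inclusion levels to within 0.0005, and 91 events with no such split were left out. Those cells are not plain counts, so a count model was not used. The junction reads of the deepest event of each gene, where they averaged 10 or more over the 6 libraries, were tested with limma 3.58.1 (R 4.3.3) on log2 of RPM (reads scaled to 1000000 per library) plus 0.5, with Benjamini-Hochberg adjustment. Inclusion logits, with 0.5 reads added to each form, were fitted with limma for events that averaged 10 or more reads in each group and a level from 0.02 to 0.98. Both fits were tested on simulated data. Python 3.11.15, numpy 2.4.6, pandas 2.3.3, scipy 1.17.1 and matplotlib 3.10.9 did the rest. Of the identifiers 99.1% were in the TAIR10 reference, and promoters and introns are RefSeq sequences of the TAIR10.1 assembly.

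Genes were called at the deposited adjusted p under 0.05. The comparison, its gene lists and their members were chosen with earlier results of these data known, so they are descriptions and no list was tested. Named genes are up to 4 members of a list with the largest absolute change among called genes averaging 50 or more normalized counts, and members that fill a role in the pathway. For the whole table the 10 largest increases and decreases among called genes averaging 500 or more were taken, for symbol families the 2 largest, and for splicing the 12 largest called differences with at least 20 reads in every library, 1 per gene, and called events of list genes. The labels call the libraries replicates without naming separate cultures, so p-values measure the spread between these samples. Other thresholds, filters, scalings, the junction reads in place of the gene table and leaving out each library were tried. Values of 2 list genes are not reported here.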

Additional observations from a re-analysis of the deposited data

How the results depend on the processing

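Of 4700 genes called higher, 1273 remained with a log2 change of at least 1, and of 4368 lower, 933. The junction reads, which cover fewer genes, gave 1946 higher and 2209 lower by limma, 2140 and 1928 with median-ratio scaling, which moved the median change by 0.029, and 1939 and 2209 with a mean of at least 1 read, both settings chosen after seeing the data. Leaving out each library gave 1583 to 1998 higher and 1625 to 2140 lower. Of 193 list genes higher, 78 passed a log2 change of 1 and 107 the junction test, and of 163 lower, 56 and 82. Of the called list genes and largest changes of the whole table with a junction test, 185 kept their call, 43 kept their direction only, and MYB51 turned to 0.10, whose cause was not tested.

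Of 105 events with higher inclusion and 117 with lower, 45 and 48 passed an FDR of 0.01, 42 and 62 an inclusion difference of 0.2, and 61 and 51 had at least 20 reads in every library. With no minimum difference 202 and 179 passed, and with no depth minimum 254 and 287. The limma fit of logits called 31 and 18, and 24 to 34 and 9 to 25 with each library left out, so most splicing calls rest on the authors' test. Of the named events 11 passed limma, and 8 did not (SAL2, GUN1, AT1G78780, AT3G10820, AT1G09023, AT5G03500, DPE1 and SEX1). The ABRE share of genes called higher past a log2 size of 1 was 25.1%, and 49.4% for the shorter ACGTG. The shorter letters were also in 26.7% of all promoters and in 25.2% of those of genes not called. For genes called lower past that size, ACGTG was in 27.2%, close to the share of all promoters. Their ABRE share was 2.28%, against 7.64% of all, so their low share was not kept with the shorter letters. No paired analysis was possible because the columns carry no replicate number. The alternatives with edgeR and DESeq2 on junction reads were not run, since those cells are not plain counts. Depth limits the splicing calls, and the gene table gives no value per library.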
